A study of Gallus gallus with 6 samples.

Results

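Crystallins are the soluble proteins that fill the cells of the lens and give it its transparency and refractive power. The 10 genes described here are the alpha crystallins CRYAA and CRYAB, the beta crystallins CRYBA1, CRYBA2, CRYBA4, CRYBB1, CRYBB2 and CRYBB3, and the delta crystallins ASL1 and ASL2. They were taken by gene symbol from a deposited table of 17262 genes, which listed all 10, and all 10 had enough reads for the test across 12391 genes. RNA came from lenses of chick embryos at embryonic day 14, wounded ex vivo by a mock cataract surgery in which the central epithelium and the fiber cell mass are taken out, while capsule, equatorial epithelium and resident immune cells stay. The study compared 3 libraries collected directly after wounding (time 0) with 3 libraries collected at 1 h post wounding, each library being a pool of 6 explants. By the methods of the paper, the 1 h explants were also opened flat by incisions into the equatorial epithelium. They were then kept for 1 h in Medium 199 with 10% fetal bovine serum, glutamine and antibiotics. Wounding time, incisions and culture therefore cannot be told apart. In the sample labels the culture step is also attached to the time 0 libraries, which conflicts with the methods. All groups share the wound of the surgery, the methods describe the incisions for the 1 h explants only, and no unwounded lens is among the samples.

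Alpha crystallins belong to the small heat shock protein family and act as chaperones that hold damaged proteins in solution. Beta crystallins are structural proteins of the beta-gamma superfamily that assemble into oligomers of acidic (A) and basic (B) chains. Delta crystallins are characteristic of bird and reptile lenses and arose from argininosuccinate lyase, an enzyme of arginine synthesis. In the chick, the delta-1 product of ASL1 has lost the enzymatic activity and the delta-2 product of ASL2 has kept it. For many crystallins, expression is lower in central epithelium, increases as cells leave the cell cycle at the equator and is highest in fiber cells.

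Even with the fiber mass removed, crystallin reads made up a large share of every library, and that share was smaller at 1 h. The 10 genes took 19.7%, 18.7% and 19.5% of all counts in time 0 replicates 1, 2 and 3, and 15.6%, 14.7% and 15.1% in the 1 h replicates. This gave means of 19.3 ± 0.526% and 15.1 ± 0.434% (SD, n = 3 libraries per time point) with no overlap. Alpha crystallins took 10.1 ± 0.75% at time 0 and 8.49 ± 0.294% at 1 h, beta crystallins 5.53 ± 0.407% and 3.98 ± 0.190%, and delta crystallins 3.73 ± 0.399% and 2.64 ± 0.338%. All 3 families therefore had a smaller share at 1 h, and again no 1 h library reached a time 0 library. ASL1 and CRYAA contributed 25.1% and 24.4% of the drop of the summed share, CRYBA2 contributed 17.3% and CRYAB 12.7%. The share of CRYAA by itself overlapped between the time points (7.25% in time 0 replicate 2 and 7.31% in 1 h replicate 3). A share depends on all other transcripts of the library, so a rise elsewhere lowers it as well. Because an explant pool was sequenced as a whole, fewer cells of a type and less RNA per cell cannot be told apart here.

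**Figure D1:**
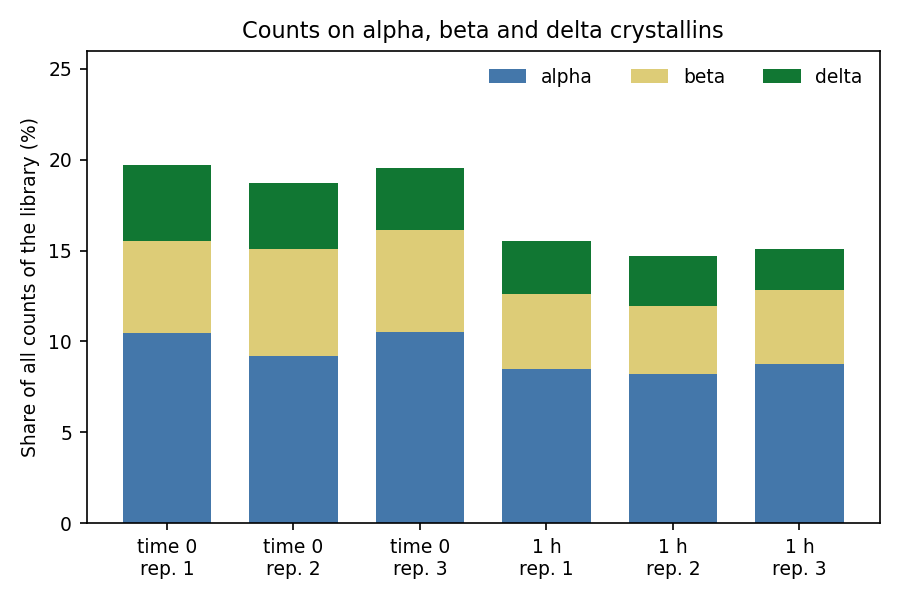
Stacked bars show the percentage of all counts of each library that fell on the alpha (CRYAA, CRYAB), beta (6 genes) and delta (ASL1, ASL2) crystallins. The bars reach between 18.7% and 19.7% at time 0 and between 14.7% and 15.6% at 1 h.

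The libraries held between 13733581 and 17673955 counts. Mitochondrially encoded genes took between 1.58% and 2.27% of the counts at time 0 and between 1.10% and 1.55% at 1 h, so this share too was smaller at 1 h, and its part in the results was not tested. Among all genes tested with edgeR's quasi-likelihood test, 12.0% were lower and 19.8% higher at 1 h at an adjusted p under 0.05. Over all of these genes the log2 fold change had a median of -0.01. Against that background, 8 of the 10 crystallins fell and none rose (0 also at an unadjusted p under 0.05, and 0 with DESeq2 and limma-voom). For the 10 crystallins this median was -0.45. The same 8 genes had every 1 h library below every time 0 library, an arrangement found in 21.4% of all genes tested. The 2 remaining genes, CRYAA and ASL2, had negative log2 fold changes that did not pass the test. Levels are given as CPM, read counts scaled to a common library size with edgeR's TMM factors.

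**Figure D2:**
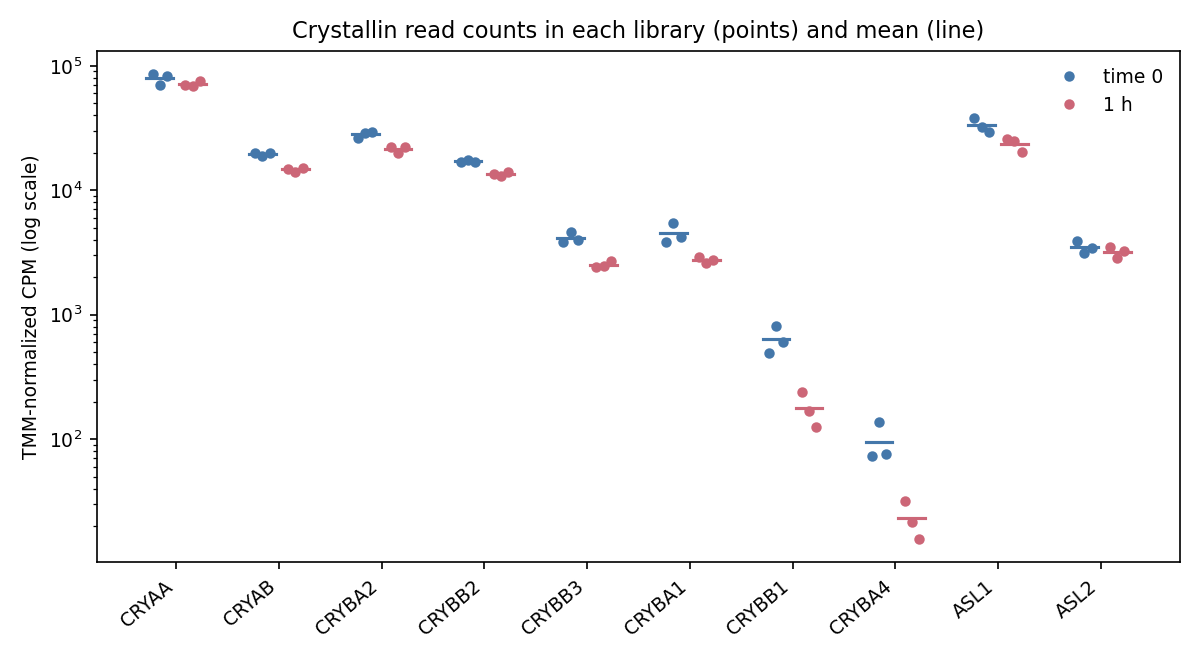
Points show the TMM-normalized CPM of each crystallin gene in each of the 6 libraries on a log axis, blue for time 0 and red for 1 h, and lines show the means of 3 libraries. The time points separate for every gene except CRYAA and ASL2, and the gap is widest for CRYBB1 and CRYBA4.

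CRYAA, the alpha A chain that is made mainly in the lens, was the most abundant gene of the table at both time points, by CPM and per length. It had 85846, 70459 and 82504 CPM in time 0 replicates 1, 2 and 3 and 70481, 68920 and 75524 CPM at 1 h. Time 0 replicate 2 lay within the range of the 1 h libraries, and the other time 0 libraries lay above it. The log2 fold change of -0.15 (standard error, SE, 0.09; 95% interval -0.35 to 0.04) did not pass the test (adjusted p = 0.219 in the edgeR test). Single libraries moved this value both ways: it was -0.23 and passed the threshold without time 0 replicate 2 (adjusted p = 0.0428), and -0.10 without time 0 replicate 1 (adjusted p = 0.478).

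CRYAB, the alpha B chain, which is also made outside the lens and is induced by stress in many tissues, fell with little spread between libraries. It had 20068, 18880 and 19733 CPM at time 0 and 14885, 14135 and 15185 CPM at 1 h. In the edgeR test this was -0.41 on the log2 scale (SE 0.07) with an adjusted p = 0.00113. The lowest time 0 library stood above the highest 1 h library by more than the range within either time point. The ratio of CRYAA to CRYAB reads per length was 3.34 ± 0.239 at time 0 and 3.99 ± 0.0984 at 1 h (SD, n = 3 libraries each), without overlap. For such ratios no test was run, and an exact permutation test of 3 libraries against 3 could not give a p below 0.1.

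The beta crystallins were all lower at 1 h, but by very different amounts. CRYBA2 and CRYBB2, the most abundant of them, fell least. CRYBA2 had 26294, 28619 and 29203 CPM at time 0 and 22431, 20043 and 22230 CPM at 1 h, or -0.38 on the log2 scale with SE 0.08 (adjusted p = 0.00363). CRYBB2, a basic chain that forms dimers, had 16932, 17421 and 16721 CPM at time 0 and 13523, 12898 and 13899 CPM at 1 h. Its libraries differed least of all 10 genes at time 0, with a coefficient of variation of 2.11%, and it changed by -0.34 on the log2 scale with SE 0.07 (adjusted p = 0.00344). Per length, CRYBA2 ranked 2 and CRYBB2 ranked 3 among all genes of the table at both time points.

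CRYBB3 and CRYBA1 formed a middle group. CRYBB3 had 3843, 4635 and 3945 CPM at time 0 and 2402, 2441 and 2680 CPM at 1 h. Its log2 fold change of -0.72 (SE 0.09) had the smallest adjusted p of the 10 genes, 6.45e-05 in the edgeR test. CRYBA1, whose messenger RNA encodes a longer and a shorter acidic chain by alternative start codons, had 3829, 5474 and 4205 CPM at time 0 and 2903, 2609 and 2758 CPM at 1 h, or -0.71 on the log2 scale with SE 0.12 (adjusted p = 0.00103). In both genes time 0 replicate 2 was the highest library. Within libraries, the ratio of CRYBB2 to CRYBB3 reads per length was 3.54 ± 0.288 at time 0 and 4.60 ± 0.200 at 1 h, and that of CRYBA2 to CRYBA1 was 8.78 ± 1.34 and 10.8 ± 0.286 (SD, n = 3 libraries each). Neither ratio overlapped between the time points.

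CRYBB1 and CRYBA4 were the least abundant of the 10 genes and fell most. CRYBB1, a basic chain that in the chick lens is made by fiber cells, had 492, 813 and 607 CPM at time 0 and 237, 170 and 126 CPM at 1 h. It changed by -1.84 on the log2 scale with SE 0.31 (adjusted p = 0.00853), so that it fell by 72.2%. CRYBA4, an acidic chain, had 72.9, 137.2 and 76.5 CPM at time 0 and 32.0, 21.5 and 15.7 CPM at 1 h, and it changed by -2.06 on the log2 scale with SE 0.39 (adjusted p = 0.0154), so that it fell by 76.0%. The groups did not overlap for either gene, yet the libraries within a time point differed more than for the other crystallins, with coefficients of variation between 25.6% and 37.8%. The call of CRYBA4 was lost without 1 h replicate 2 (log2 fold change -2.02, adjusted p = 0.0676), while that of CRYBB1 was kept with each library left out.

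**Figure D3:**
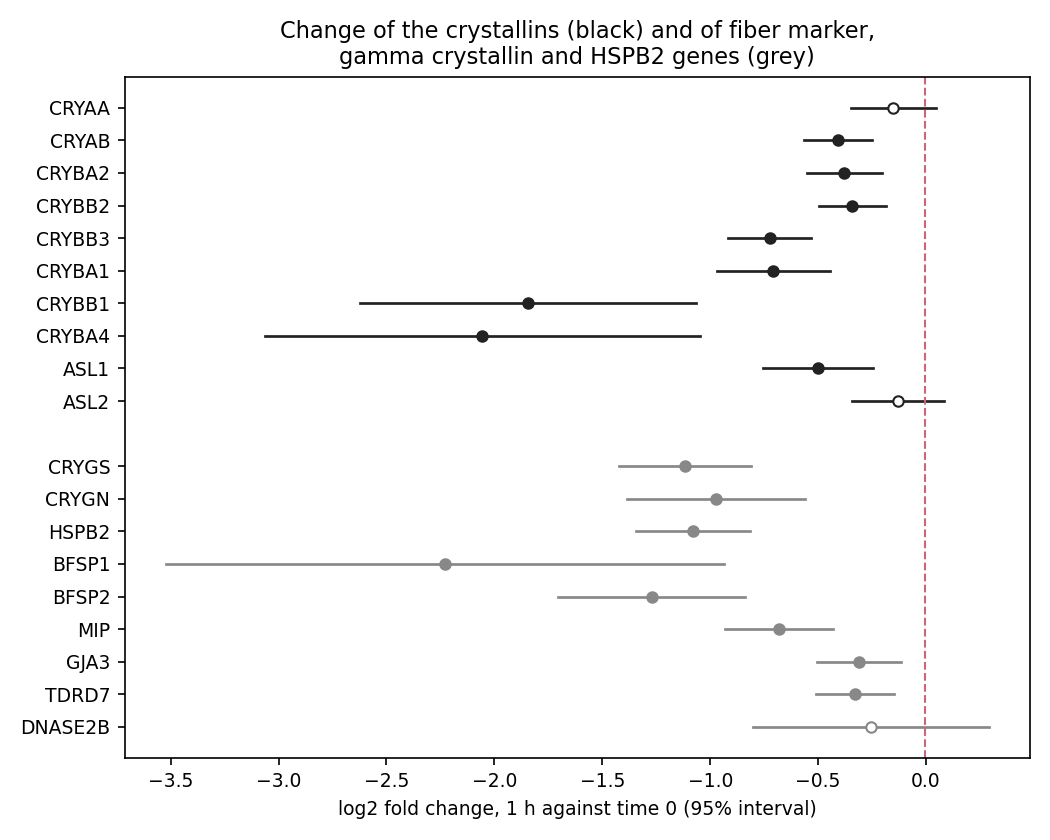
Points show the log2 fold change at 1 h against time 0 with its 95% interval from edgeR, black for the 10 crystallins and grey for gamma crystallins, HSPB2 and fiber markers. Filled points passed an adjusted p of 0.05, open points did not, the dashed line marks the median of all genes tested (-0.01), and LGSN is not drawn. The intervals of CRYBB1 and CRYBA4 lie to the left of those of the 8 other black points, and those of CRYAA and ASL2 include 0.

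Per length, the order of the beta crystallins by level at time 0 was CRYBA2, CRYBB2, CRYBB3, CRYBA1, CRYBB1 and CRYBA4, from 38997 ± 2141 to 134.4 ± 50.8 CPM per kb (SD, n = 3 libraries). CRYBB3 (5477 ± 569.6 CPM per kb) and CRYBA1 (4525 ± 866.2 CPM per kb) overlapped across libraries at time 0, although CRYBB3 was the higher of them within each of the 6 libraries, and the other neighbours in this order did not overlap. Across the 6 genes, a lower level at time 0 went with a larger decrease (Spearman's rho 0.89 between level per length and log2 fold change). Across all 10 crystallins rho was 0.62. These are descriptions of 6 and 10 genes that share the same libraries, and the level at time 0 enters both measures. At time 0, CRYAA (39059 ± 3971 CPM per kb) and CRYBA2 were alike in level per length. At 1 h they had 35153 ± 1694 and 29997 ± 1842 CPM per kb and did not overlap. Behind them and CRYBB2 at time 0 came ASL1 (13678 ± 1856 CPM per kb) and CRYAB (11692 ± 366 CPM per kb), whose libraries came close without overlap, and ASL2 (899.2 ± 95.6 CPM per kb) stood between CRYBA1 and CRYBB1.

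The delta crystallins differed from each other in their call. ASL1 had 38288, 32350 and 29402 CPM at time 0 and 25849, 24737 and 20129 CPM at 1 h. The log2 scale value was -0.50 with SE 0.12 (adjusted p = 0.00703), or fell by 29.3% on the linear scale, and the lowest time 0 library was above the highest 1 h library. ASL2 had 3886, 3152 and 3425 CPM at time 0 and 3491, 2839 and 3231 CPM at 1 h, and the time points overlapped. Its log2 fold change was -0.13 (SE 0.10, 95% interval -0.34 to 0.08), which did not pass the test (adjusted p = 0.336). It was -0.05 without time 0 replicate 1, -0.07 without 1 h replicate 2, -0.20 without time 0 replicate 2 and -0.22 without 1 h replicate 1, and passed the test in none of these. Per length, ASL1 reads outnumbered ASL2 reads 15.2 ± 1.39 times at time 0 and 11.9 ± 1.98 times at 1 h (SD, n = 3 libraries each), and these ratios overlapped, so a difference in change between the delta crystallins was not shown. ASL1 and ASL2 are near-identical tandem copies, and reads that match both may have been dropped or placed on either. Their summed counts, an alternative chosen after the data were seen, had a log2 fold change of -0.46 (adjusted p = 0.00786). In the RefSeq annotation of the GRCg7b assembly ASL2 is listed as ASL, with ASL2 and delta-2-crystallin among its synonyms, and the other 9 symbols were matched directly.

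The position of the genes may limit how far some counts can be assigned. Overlaps are given for whole gene spans, which exceed the listed gene lengths (711 bases for CRYBA4). Whether exons overlap was not examined. Coordinates are those of the authors' table, which names no build, and the sources used here do not say whether counting used the strand. CRYBA4 (ENSGALG00000005634, chromosome 15 from 7458871 to 7470893, plus strand) overlaps CRYBB1 (ENSGALG00000005630, 7465177 to 7483070, minus strand) over 5717 bases and TPST2 over 5955 bases. CRYBB1 also spans an unnamed long noncoding RNA gene over 3056 bases. TPST2, a protein tyrosine sulfotransferase, had 5.50 CPM at time 0 and a log2 fold change of -0.61 (adjusted p = 0.133), and the long noncoding RNA had 33.3 CPM and -0.53 (adjusted p = 0.148). The ratio of CRYBB1 to CRYBA4 reads per length was 4.06, 3.56 and 4.77 in time 0 replicates 1, 2 and 3 and 4.45, 4.76 and 4.81 at 1 h, so the libraries overlapped. Each gene was also summed with the genes it overlaps. The log2 fold change of the sum was -1.85 around CRYBA4 and -1.78 around CRYBB1 (adjusted p = 0.00857 and 0.0103 in the edgeR test). CRYBB1 gave most of the reads in both sums (6669 against 989 of CRYBA4 in time 0 replicate 1). The sums therefore do not describe CRYBA4 apart from CRYBB1.

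CRYAB (ENSGALG00000007945, chromosome 24 from 6239995 to 6246232, plus strand) lies over its full 6238 bases inside HSPB2, another small heat shock gene, on the minus strand. HSPB2 went from 49.1 ± 7.63 to 23.2 ± 2.39 CPM (SD, n = 3 libraries per time point) and fell by 1.08 in log2 units with SE 0.12 (adjusted p = 3.27e-05). Reads of CRYAB and of HSPB2 in the shared stretch may not be separable, and CRYAB had far more counts. C11orf52, which lies 3697 bases from CRYAB and also within HSPB2, fell by 0.48 (adjusted p = 0.000468). The other overlap was that of ASL2 (ENSGALG00000002576, chromosome 19 from 5082064 to 5091544) with GUSB, the beta-glucuronidase gene, over 767 bases on the same strand. Summing left the values of CRYAB and ASL2 at -0.41 and -0.13, but the overlapping genes had too few reads to move them much. In time 0 replicate 1, HSPB2 had 584 counts against 272159 of CRYAB, and GUSB had 1538 against 52700 of ASL2.

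The other 6 crystallin genes overlap no gene of the table. CRYBB3 (ENSGALG00000005515, chromosome 15 from 7280820 to 7282692) and CRYBB2 (ENSGALG00000026086, 7284658 to 7286811) follow each other on the plus strand with 1965 bases between them. The genes on either side, KIAA1671 and GRK3, had log2 fold changes of 0.04 and 0.11 without a call (adjusted p = 0.709 and 0.286). ASL1 (ENSGALG00000002558, chromosome 19 from 5095412 to 5104199, minus strand) lies 3867 bases from ASL2, and on its other side CRCP, a subunit of RNA polymerase III, fell by 0.48 (adjusted p = 0.00282). CRYBA1 (ENSGALG00000004035) is on chromosome 19 from 6109485 to 6113457, CRYBA2 (ENSGALG00000011354) on chromosome 7 from 22350254 to 22352592 and CRYAA (ENSGALG00000016199) on chromosome 1 from 111071770 to 111078627, all on the plus strand. Of the 18 distinct genes that overlap or adjoin the crystallins, 15 were tested, 3 were lower and 1, NUFIP2 beside CRYBA1, was higher (log2 fold change 0.48, adjusted p = 0.000841).

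**Figure D4:**
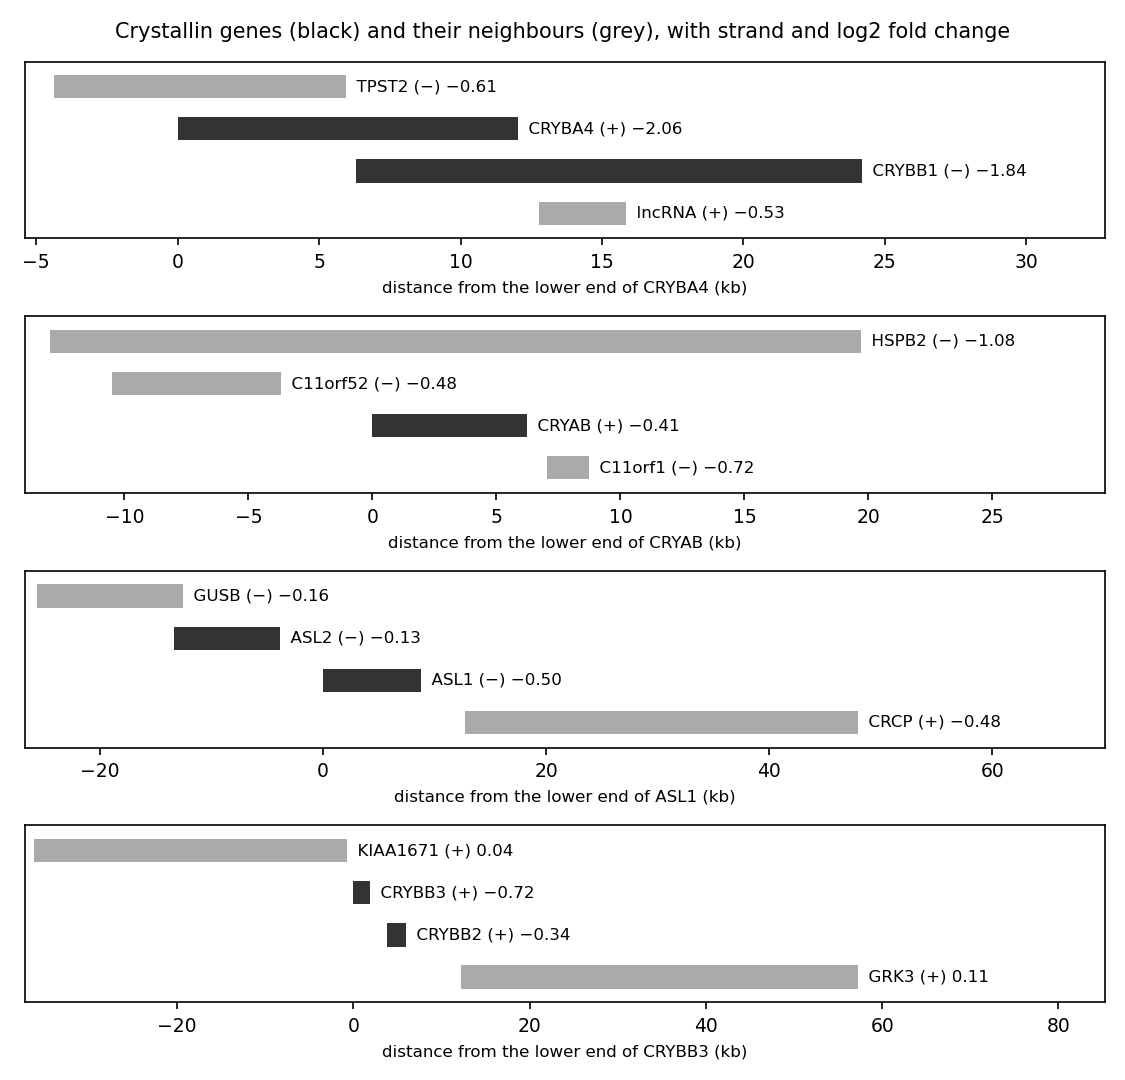
Bars show the extent of crystallin genes (black) and their neighbours (grey) in kb from the lower coordinate of the gene named under each panel, with the strand in brackets and the log2 fold change at 1 h. CRYBA4 and CRYBB1 overlap on opposite strands, CRYAB lies within HSPB2, ASL2 touches GUSB, and CRYBB3 and CRYBB2 overlap nothing.

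Fiber cell markers moved with the crystallins. Of 14 listed markers, 10 were tested, and 8 of them were lower and none higher at 1 h, with a median log2 fold change of -0.83, and none was at 0 in all libraries. CRYGS and CRYGN, described below, are among them. Their summed level ranged from 3402 to 3821 CPM at time 0 and from 2548 to 2799 CPM at 1 h. BFSP1, an intermediate filament protein of fiber cells, went from 288.7 ± 91.7 to 61.7 ± 33.4 CPM and fell by 2.23 on the log2 scale (adjusted p = 0.0278). Its partner BFSP2 fell by 1.27 (adjusted p = 0.00184). LGSN, a lens relative of glutamine synthetase, was covered by 28, 31 and 13 reads in the time 0 libraries and by 0, 1 and 0 reads in the 1 h libraries. Against a floor of 3 counts per library it was at least 8.38-fold lower.

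The libraries that stood high or low for CRYBB1 and CRYBA4 did so for some of these markers as well. Relative to the mean of time 0, time 0 replicate 2 was highest of its group for CRYBA4 (0.58 in log2 CPM), CRYBB1 (0.38) and CRYBA1 (0.30), and also for BFSP1 (0.49), CRYGN (0.32) and MIP (0.16). At 1 h replicate 3 was lowest for CRYBA4 (-2.53) and CRYBB1 (-2.31), and also for BFSP1 (-3.02) and BFSP2 (-1.57). CRYAA, CRYAB and ASL2 instead had their lowest time 0 value in replicate 2. Listed epithelium markers were summed to between 4914 and 5056 CPM at time 0 and between 4932 and 5013 CPM at 1 h. Of 13 tested, 3 were higher and 2 lower, so the sum combines opposite changes. On average GJA1, the most abundant of them, fell from 2624 to 2248 CPM and IGFBP7 from 293.8 to 198.9 CPM. PAX6 rose from 597.1 to 918.9 CPM, LAMA1 from 30.5 to 42.4 CPM and IGFBP3 from 5.55 to 15.5 CPM. Whether the amount of fiber tissue left on the explants had a part in the fall of the crystallins was not tested. Without time 0 replicate 2, 9 crystallins and 1137 of the 12598 genes tested were lower. Without 1 h replicate 3, 8 crystallins and 1113 of 12581 genes were. Leaving out a library does not test the amount of fiber tissue.

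**Figure D5:**
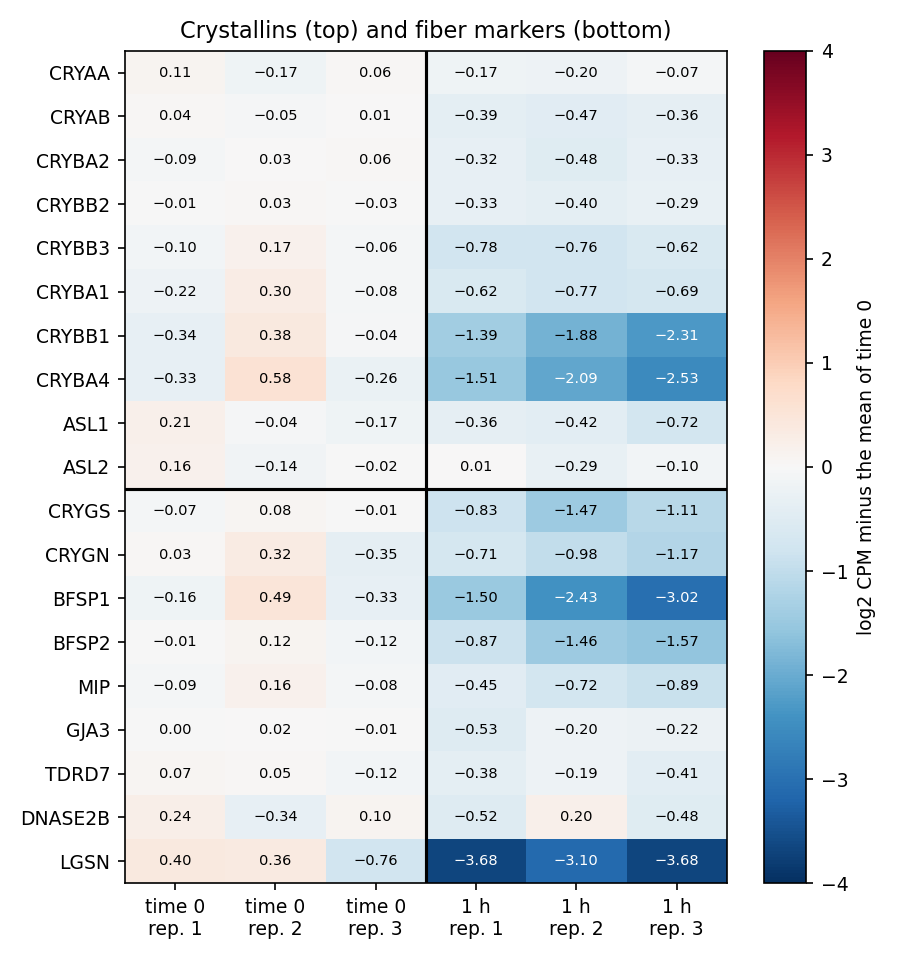
Cells give the log2 CPM of each gene in each library minus the mean of the 3 time 0 libraries, for the 10 crystallins above the line and 9 tested fiber markers below it. CRYBB1 and CRYBA4 reach -2.31 and -2.53 in 1 h replicate 3, where BFSP1 reaches -3.02, while CRYAA stays between -0.20 and 0.11 in all libraries.

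Genes that carry the crystallin name outside the alpha, beta and delta families were split. Both gamma crystallins of the list, structural relatives of the beta crystallins, fell: CRYGS from 91.6 ± 4.99 to 42.3 ± 9.25 CPM (log2 fold change -1.12, adjusted p = 0.000199) and CRYGN from 50.3 ± 11.5 to 25.7 ± 4.16 CPM (-0.97, adjusted p = 0.00385). CRYL1, CRYM, CRYZ and CRYZL1, which encode enzymes or an enzyme-like binding protein of other tissues and serve as lens proteins in other animals or are named after such, had log2 fold changes from -0.22 to -0.01 and none passed the test. The list had a median log2 fold change of -0.19 over 6 tested genes, with 2 lower and 0 higher at an adjusted p under 0.05.

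Of 22 listed transcription factors with known actions on crystallin genes, 16 were tested, and 9 were higher and 3 lower at 1 h, with a median log2 fold change of 0.29. Among the lower ones was MAFA, known in the chick as L-Maf, an activator of alpha A, beta B1 and delta crystallin genes, which went from 312.4 ± 14.5 to 200.3 ± 15.0 CPM (log2 fold change -0.64, adjusted p = 5.35e-05). SOX1 (-0.28) and CREB1 (-0.31) also fell. SOX2, which acts with PAX6 on the delta crystallin enhancer, rose from 3.90 ± 0.253 to 10.8 ± 2.31 CPM (log2 fold change 1.47). PAX6 rose from 597.1 ± 24.6 to 918.9 ± 24.8 CPM (0.62) and PROX1, a factor needed for fiber elongation in the mouse, from 280.7 ± 23.2 to 485.1 ± 78.0 CPM (0.79). MAF had 273.2 ± 19.0 and 262.7 ± 5.47 CPM and did not pass the test (adjusted p = 0.585).

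Genes around the enzyme that delta crystallins derive from showed no common change. Of 5 tested genes of the arginine and urea cycle list, 2 were higher and 0 lower, with a median log2 fold change of -0.02. ODC1, the ornithine decarboxylase of polyamine synthesis, rose by 0.92 and NOS2, a nitric oxide synthase that uses arginine, by 0.66. ASS1, which makes the substrate of argininosuccinate lyase, had a log2 fold change of -0.44 that did not pass the test (adjusted p = 0.147). Of the small heat shock list, which includes the relatives of the alpha crystallins, only HSPB1, HSPB2 and HSPB11, the last now known as an intraflagellar transport protein, had enough reads, and HSPB2 alone passed the test. HSPB1 had 2.07 ± 0.634 and 2.35 ± 0.635 CPM.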

How the data were processed

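Poly-A selected RNA was sequenced by Novogene as Illumina paired-end reads. The submitters' processing notes name HISAT2 2.0.5, featureCounts 1.5.0-p3, StringTie 1.3.3b and DESeq2 1.20.0. Genome build and strand setting are not given in the sources used here. The authors deposited raw read counts per gene, which were used as they stand, and gene length and coordinates. Their normalized values, FPKM values, fold changes and p-values were not used.

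Counts were analysed with R 4.3.3 and edgeR 4.0.16: filterByExpr (12391 of 17262 genes), TMM factors, then glmQLFit with robust fitting and glmQLFTest. p-values were adjusted over all genes by Benjamini-Hochberg (threshold 0.05). Standard errors and 95% intervals come from the F statistic and its degrees of freedom. Abundant genes have many reads, so counting error is small for the crystallins. The p-values reflect a spread between libraries that the fit moderates by that of all genes tested, not each gene's own spread alone. For CRYBB1 and CRYBA4 the robust fit moderated less, as their wider intervals relative to the SE show. Their p-values therefore rest mostly on their own spread between libraries. The labels call the libraries biological replicates. Within a time point, libraries differed beyond sampling noise (chi-square per degree of freedom 7.74 to 14.1), so all 6 were kept. The floor of 3 counts was between 0.175 and 0.221 CPM and covers counting error only. The steps were tested on simulated data. Levels of different genes were compared as CPM per kb of the listed gene length. Log2 CPM used a prior count of 2.

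Alternatives were DESeq2 1.42.0, limma-voom (limma 3.58.1), other scalings, no filter, a replicate block, sums of overlapping genes and leaving out each library. The genes and lists were chosen with earlier results of these data known. All 10 crystallins, their neighbours and up to 3 called genes with the largest change per list were named, other genes after their values were seen. Some genes that this rule or the lists include are not reported here. No sequence of these genes was used here. Libraries with equal replicate numbers did not deviate together (correlations of deviations between -0.0764 and 0.00466, against -0.0409 to 0.0748 for unequal numbers). With 3 libraries per time point this cannot settle whether equal numbers were paired.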

Additional observations from a re-analysis of the deposited data

How the results depend on the processing

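All 10 crystallins had a negative log2 fold change in every alternative run. The number that fell was 8 with DESeq2, limma-voom, RLE factors, library totals, TMM without the crystallins, no filter and the replicate block, 10 with upper-quartile factors, and between 7 and 9 with each library left out. Upper-quartile factors moved the median of all genes from -0.01 to -0.14 and the split of all calls from 2450 higher and 1488 lower to 1901 and 3400. On that scale CRYAA (-0.29, adjusted p = 0.0233) and ASL2 (-0.26, adjusted p = 0.0464) passed, and the median of the 10 genes was -0.59. Library totals gave 2201 higher and 2016 lower. Over the runs with all 6 libraries, lower calls among all genes ranged from 1345 of 12391 (replicate block) to 3400 of 12391 (upper-quartile factors). With a library left out they ranged from 1035 of 12652 (without time 0 replicate 1) to 1432 of 12586 (without 1 h replicate 1). All genes called numbered 3730 with the replicate block against 3938 without it, and between 3078 and 3728 with each library left out. The replicate numbers are not stated to mark shared animals, and the block changed no call of a crystallin. The share of counts on the crystallins was 19.7% and 15.3% without mitochondrially encoded genes. Depth did not limit the crystallins, whose lowest count was 269.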

Other observations

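Summed levels of resident immune cell markers were between 7.08 and 10.1 CPM at time 0 and between 7.53 and 10.3 CPM at 1 h, those of pigmented ciliary epithelium and retina between 22.1 and 25.0 and between 22.6 and 23.9 CPM. Blood cell markers were summed to between 30.0 and 31.5 CPM at time 0, and 1 h replicate 1 stood apart with 56.5 CPM against 29.9 and 29.6 CPM. Without that library 8 crystallins and 1432 of 12586 genes tested were lower, and 8 crystallins were lower with it. Few genes carried these sums. At time 0, ALAS2 gave most of the blood sum (mean 26.5 CPM) and RLBP1 the largest part of the pigment and retina sum (mean 14.4 CPM). Only 5 of 18 listed immune, 4 of 12 pigment and retina and 3 of 14 blood genes had enough reads for the test. The sums therefore say little about the amount of these cells.

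After log2 CPM were centred within each time point, TRDMT1, LCMT2, CTU2, GPR146 and OSGIN2 were the genes most like the mean of the 10 crystallins over 6 libraries, with Pearson's r between 0.989 and 0.999. This is a description over few libraries and 7596 genes compared, and centring leaves fewer free values than libraries. The mean was not scaled per gene, so CRYBA4 and CRYBB1, which varied most, weigh most in it. Such likeness covers differences within a time point and not the change between them. OSGIN2 and GPR146 rose at 1 h (log2 fold change 1.11 and 0.52, adjusted p = 4.90e-05 and 0.00171 in the edgeR test). TRDMT1, LCMT2 and CTU2 did not pass the test. Pearson's r of a crystallin with the mean of the others ranged from -0.74 (CRYAA) to 0.88 (CRYBA4). The crystallins did not vary as a group in the same values, since CRYAA, CRYAB and ASL2 had their lowest time 0 value in the library where CRYBA1, CRYBA4, CRYBB1, CRYBB2 and CRYBB3 had their highest.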
